A study of Mus musculus with 2 samples.

Results

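The epidermal differentiation complex (EDC) is a run of genes on mouse chromosome 3 that encode proteins of the cornified layer of the skin and their calcium-binding neighbours. Its members were taken as the protein-coding genes of chromosome 3 named Sprr, Lce or S100a with a number, together with Lor, Ivl, Flg, Flg2, Hrnr, Crnn, Tchh, Tchhl1, Rptn and Crct1. This gave 60 of the 21938 protein-coding genes that GENCODE places on the autosomes, X and Y of GRCm38. They comprised 14 S100a genes, 15 Sprr genes, 21 Lce genes, 7 fused-type S100 genes, and Lor, Ivl and Crct1. Among the Sprr genes, Sprr2j-ps bears the symbol of a pseudogene, though GENCODE types it as protein-coding. Trimethylation of lysine 36 of histone H3 (H3K36me3) was profiled by ChIP-seq in primary keratinocytes (KCs) of the skin of 10-week-old Setd2fl/fl mice on the C57BL/6 strain, which carry the floxed allele of the H3K36 methyltransferase gene Setd2. The labels name no Cre and no treatment for these KCs, so the data come from the control genotype of a study of Setd2 loss in epidermal wound repair. There was 1 ChIP library, with 45575 peaks in its table, and 1 input library that was not analysed here as values of its own. With 1 library there is no replicate error, so every value below is a description, and the read depth behind the peaks is unknown. Neither the number of mice nor the share of cells in each epidermal layer was given in the sources used here.

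KCs are born in the basal layer, leave it, and build the cornified envelope, a sheet of cross-linked protein under the plasma membrane that takes the place of the membrane as the cell dies. Involucrin (Ivl) is an early scaffold of this envelope, loricrin (Lor) is its main reinforcing protein, and the small proline-rich (Sprr) and late cornified envelope (Lce) proteins are cross-linked into it by transglutaminases. Filaggrin (Flg) and its fused-type relatives join an S100-like calcium-binding start to long repeats, and filaggrin bundles keratin filaments before it is broken down to small molecules that hold water. The S100 proteins are small EF-hand calcium sensors with roles inside and outside the cell. H3K36me3 is laid down behind elongating RNA polymerase II and is usually densest towards the ends of transcribed genes, so a peak on a gene body marks the chromatin and is not itself a measure of RNA.

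H3K36me3 peaks lay on 8 S100a genes, at both ends of the EDC, and on Sprr1a, and on no other member (map of peaks and members by distance). A peak overlapped the body of 9 of the 60 members by at least 1 bp, 15.0% (exact 95% interval 7.10-26.6%, which covers counting error only and takes neighbouring genes as separate), whereas 51.4% of all protein-coding genes and 53.5% of those on chromosome 3 had a peak on the body. The marked members were S100a1, S100a13, S100a14, S100a16, S100a6, S100a7a, Sprr1a, S100a11 and S100a10. By family, 8 of 14 S100a genes were marked (57.1%, exact 95% interval 28.9-82.3%), a share near that of all genes. With peaks of fold enrichment of at least 3, or of P below 1e-05, 4 S100a genes stayed marked, S100a14, S100a16, S100a11 and S100a10, where 42.6% and 24.6% of all protein-coding genes were. Of the Sprr genes 1 of 15 was marked (6.67%, interval 0.169-31.9%), of the Lce genes 0 of 21 (interval up to 16.1%), of the fused-type S100 genes 0 of 7 (interval up to 41.0%), and of Lor, Ivl and Crct1 0 of 3 (interval up to 70.8%). The deposited annotation, which assigns each peak to a gene, gave 10 members a peak, where 45.4% of all protein-coding genes were assigned one. These were the marked members other than S100a1, whose peak was assigned to its neighbour Chtop, and in addition Ivl and Lce6a, whose assigned peaks lay outside their GENCODE bodies.

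**Figure D1:**
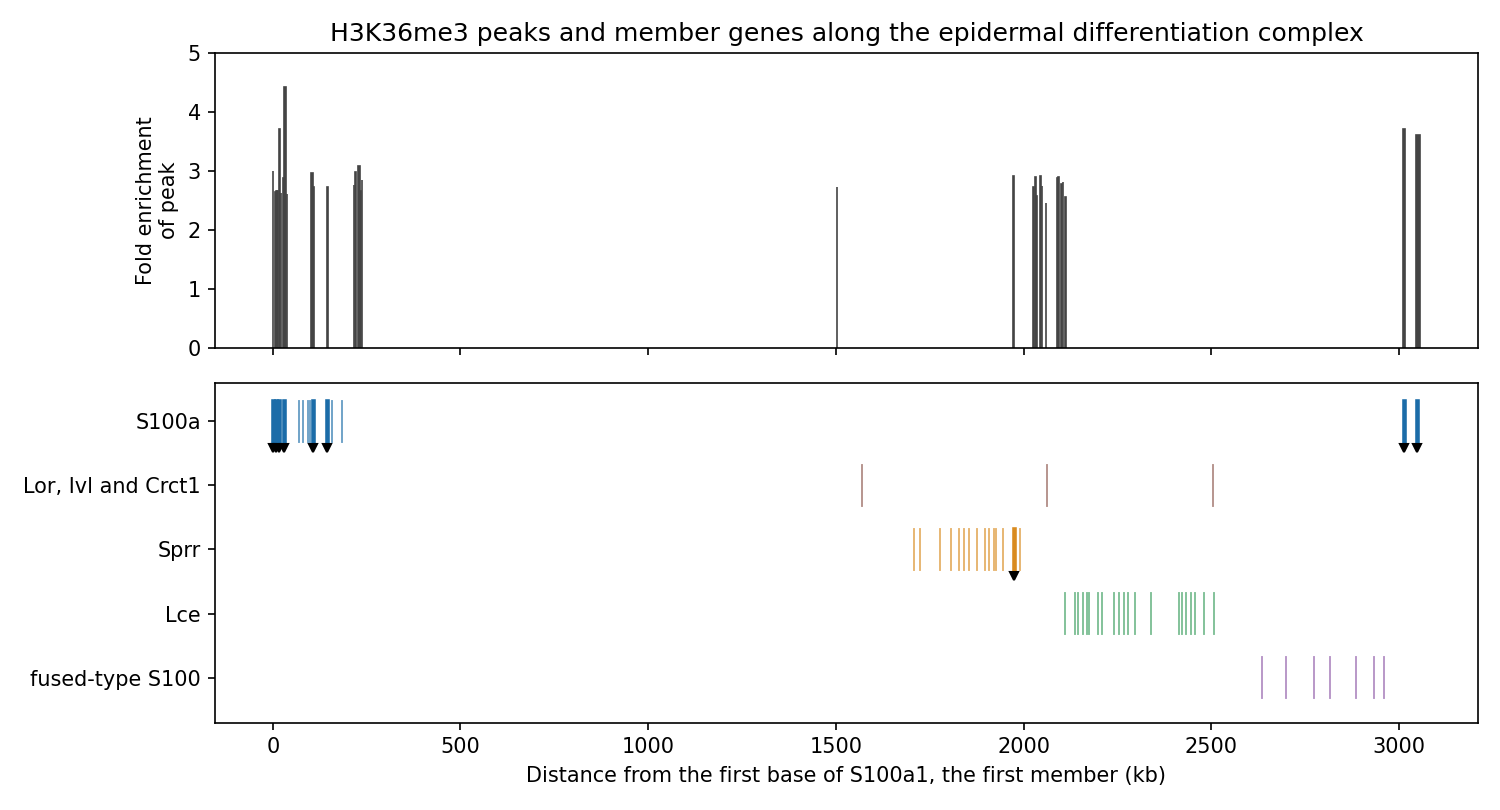
Peaks and members of the EDC by distance in kb from the first base of S100a1. The upper panel draws each of the 32 peaks at its place with its fold enrichment as height, outlined so that narrow peaks can be seen; the lower panel marks the midpoint of each of the 60 members in the row of its family, with thick lines and black triangles for the 9 members with a peak on the body. Peaks gather at the S100a genes on both sides and around Ivl, a lone peak lies at Sprr1a, and no peak lies among the 20 Lce genes from Lce1a1 to Lce1m or the 7 fused-type S100 genes.

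Members are short genes with few exons, and the marked share of such genes was lower across the genome too. The bodies of the members ran from 231 to 42125 bp with a median of 1754 bp. Among the 16071 protein-coding genes in that range of length 46.9% had a peak. Between the lower and upper quartile of the members' lengths, 1332 to 4748 bp, it was 29.4% of 2850 genes, and 4 of the 30 members in that window were marked. Of the members, 55 have at most 3 exons in every coding transcript, and 7 of these 55 were marked, where 20.2% of the 5191 protein-coding genes with at most 3 exons were. Marked members had a median length of 5800 bp and unmarked members one of 1675 bp. The part of length and exon number in the low count of marked members was not tested.

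**Figure D2:**
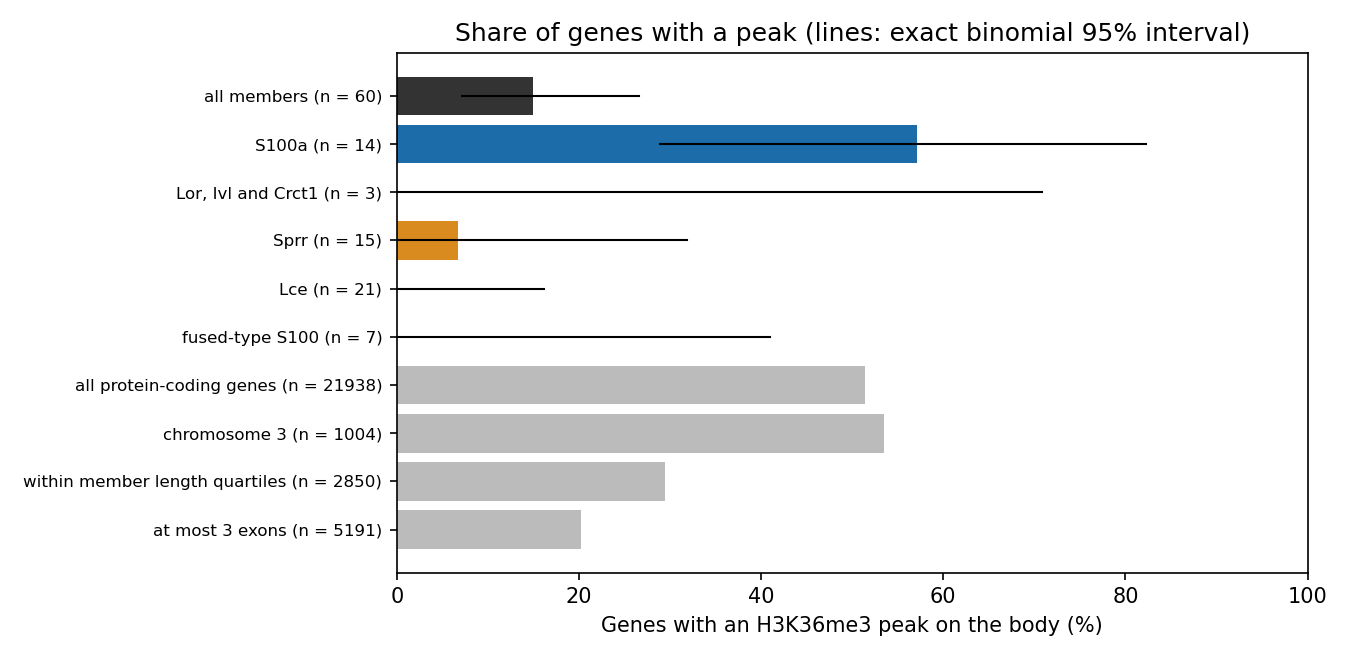
Percent of genes with an H3K36me3 peak on the body, for all 60 members, the 5 families and 4 sets of protein-coding genes, with the number of genes beside each name. Black lines on the members' bars are exact binomial 95% intervals; the S100a genes stand at 57.1%, the Sprr genes at 6.67% and the other families at 0, beside 51.4% of all protein-coding genes and 20.2% of those with at most 3 exons.

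At the proximal S100a cluster, 12 members lie within 184688 bp (chr3:90511034-90695721), and 12.4% of these bases were in peaks. S100a1, a calcium regulator best known from heart muscle, had a peak of 1019 bp at its 3′ end that covered 26.6% of its body, with a fold enrichment over background just under 3 that rounds to 3.0. S100a13, which takes part in the export of growth factors that lack a signal peptide, held 3 peaks with fold enrichments of 2.64, 2.66 and 2.66, and 49.6% of its 10147 bp lay in them. S100a14 was covered over 61.6% of its 1982 bp, with a fold enrichment of 3.71 and a −log10 P of 6.03. These 3 genes adjoin each other, and their peaks were separate calls rather than a continuous domain.

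S100a16, an EF-hand protein of epithelia and other tissues, carried the highest enrichment of the complex. Its second peak, 3628 bp at chr3:90542124-90545751, had a fold enrichment of 4.42 and a −log10 P of 8.44, where the median fold enrichment of all peaks of the table was 2.90 and 99.7% of them lay below 4.42. This peak began after 82.6% of the gene body and ran 2600 bp past its end. Its first peak had a fold enrichment of 2.87, and both together covered 45.3% of the 5898 bp of the gene, or 17.4% with peaks of fold enrichment of at least 3 or P below 1e-05 alone.

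The next 4 genes, S100a3, S100a2, S100a4 and S100a5, lay in a stretch of 65209 bp with no peak. S100a4 is known as a metastasis-associated protein that is also made by fibroblasts, and S100a3 is a hair cuticle protein. The nearest peak was 2222 bp from S100a5, 7957 bp from S100a4 and 11300 bp from S100a3. S100a3 is the longest member at 42125 bp in GENCODE and contains S100a2, whereas its coding transcripts span 18044 bp, and neither span met a peak.

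S100a6 (calcyclin) and S100a7a, a mouse relative of human psoriasin, were marked, and how much of each was covered depended on the gene model. The GENCODE body of S100a6 is 11300 bp (chr3:90612882-90624181), and 50.6% of it lay in peaks with fold enrichments of 2.97 and 2.73. Its coding transcripts span only 1533 bp, of which 26.9% was covered, and in RefSeq, at 1521 bp, 27.1% was. The first of these peaks ran 3246 bp past the end of the RefSeq gene, and the other began beyond it. S100a7a was covered over 33.2% of its GENCODE body by a peak of 1547 bp with a fold enrichment of 2.72, and over 24.9% of its RefSeq body.

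S100a8 and S100a9, which encode the subunits of calprotectin, an alarm protein of stressed epidermis and neutrophils, had no peak. The nearest peak was 10888 bp from S100a8 and 31802 bp from S100a9. Nearly all of both genes could be read at a single place in the genome, with 100% and 98.5% of their 75-base windows found there.

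At the distal end, S100a11 and S100a10 had the longest peaks among the members. S100a11, a calcium-dependent growth regulator of KCs, was covered over 88.5% of its 5800 bp by a peak of 6510 bp (chr3:93521156-93527665) with a fold enrichment of 3.71. S100a10, the partner of annexin A2 at the plasma membrane, was covered over 77.9% of its 9564 bp by a peak of 10485 bp with a fold enrichment of 3.60, the widest of the complex. The peak of S100a11 ran 1378 bp past the end of the gene and that of S100a10 3033 bp. Together, 31.6% of the bases from the start of S100a11 to the end of S100a10 were in peaks.

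**Figure D3:**
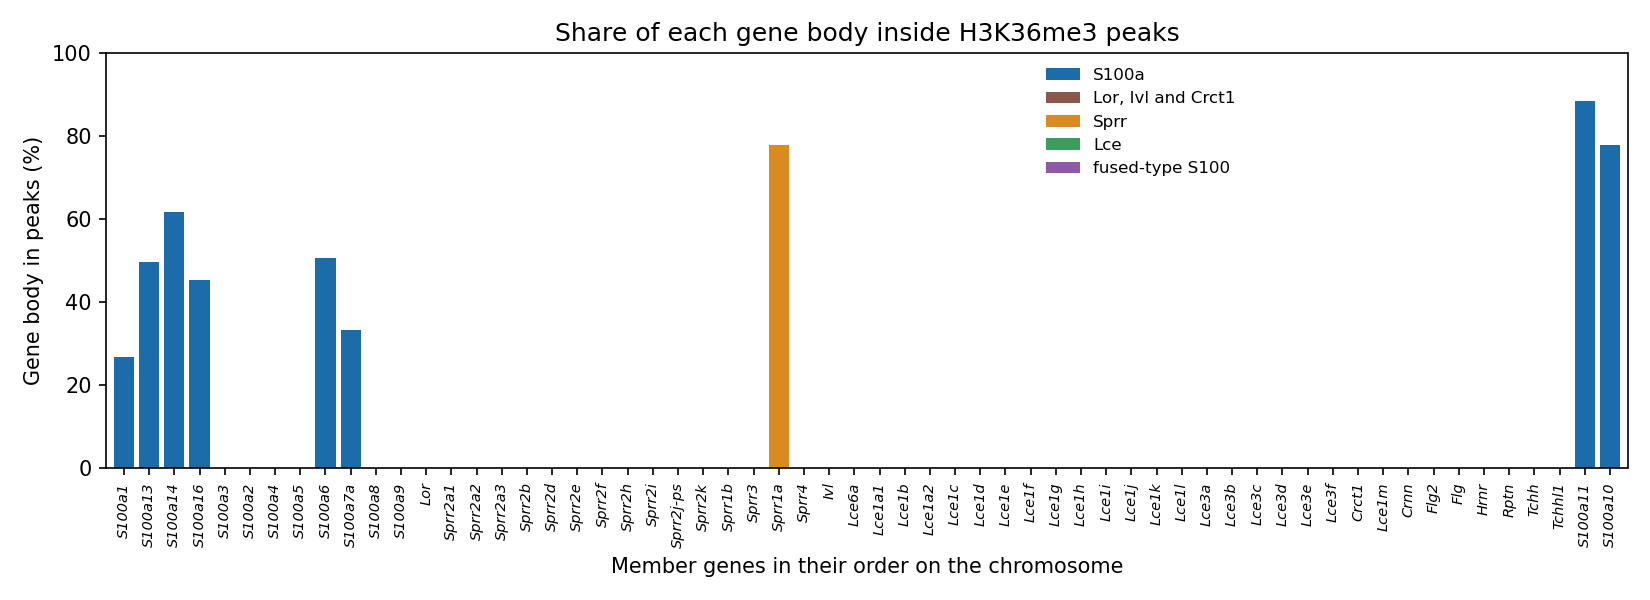
Percent of each member's GENCODE gene body inside peaks, with the 60 members in chromosomal order and colours for the 5 families. Bars range from 26.6% (S100a1) to 88.5% (S100a11); the other 51 members are at 0.

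Within the marked genes the peaks lay towards the 3′ end, as in marked genes at large. In 8 of the 9 marked members more peak bases fell after the midpoint of the body than before it, and 86.3% of all protein-coding genes with a peak had that order. The exception was S100a6, with 36% of its peak bases after the midpoint of its long GENCODE body. In S100a1 and S100a7a all peak bases were after the midpoint, in S100a14 81.2%, in S100a16 70.2%, in Sprr1a and S100a10 64.2% each, in S100a13 63.8% and in S100a11 56.5%. In 7 of the 9 a peak ran past the annotated end of the gene, by 125 bp (S100a1) to 3033 bp (S100a10), and in none did a peak reach the first annotated base. The same counts over all protein-coding genes with a peak were not made, so neither can be called particular to these members. The median covered share of the 9 was 50.6%, beside 46.4% over all protein-coding genes with a peak. The share was at least 50% in 5 members, S100a14, S100a6, Sprr1a, S100a11 and S100a10, where 23.8% of all protein-coding genes were covered that far.

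**Figure D4:**
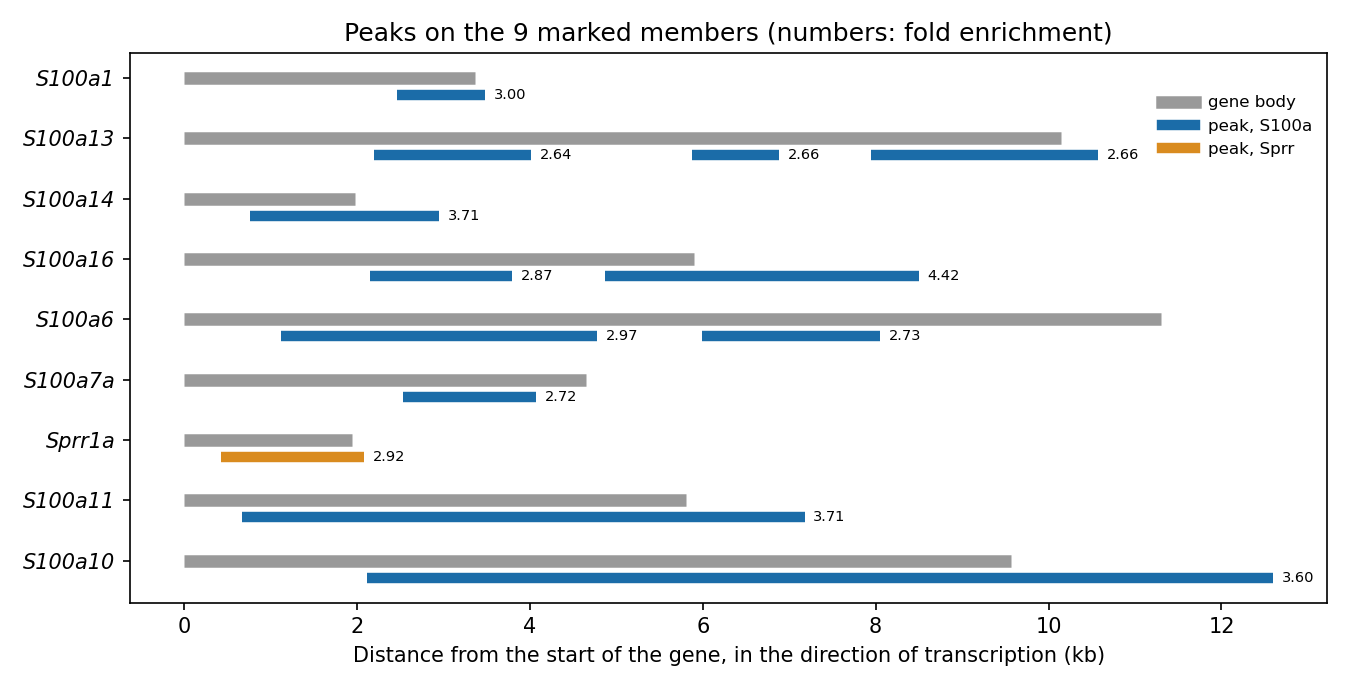
Peaks on the 9 marked members. Grey bars are gene bodies drawn from the start of the gene in the direction of transcription in kb; coloured bars are peaks, blue for S100a genes and orange for Sprr1a, with the fold enrichment of each printed beside it. Every peak begins downstream of the gene start, and peaks of 7 members pass the gene end.

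Among the Sprr and Lce genes, Lor and Ivl, only Sprr1a was marked. Its protein is a cross-bridging precursor of the cornified envelope that is also induced in stressed and regenerating tissues. A peak of 1657 bp (chr3:92483810-92485466) with a fold enrichment of 2.92 and a −log10 P of 4.0 covered 77.9% of the 1944 bp of the gene. The peak began 429 bp after the gene start and ran 142 bp past its end. Its enrichment was close to the median of all peaks, 2.90, and with peaks of fold enrichment of at least 3, or of P below 1e-05, Sprr1a had none and 0 of 15 Sprr genes were marked. The other 14 Sprr genes had none: the nearest to a peak was Sprr4, at 14796 bp, and the farthest was Sprr2a2, at 200522 bp. That distance rests on a GENCODE body of 40805 bp that overlaps Sprr2a1, whereas the RefSeq body of Sprr2a2 is 6658 bp. Sprr1b, the closest relative of Sprr1a by name and 45020 bp from its peak, was of like length (1981 bp) and had 98.7% of its windows at a single place in the genome.

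Lor, Ivl and Crct1 had no peak on their bodies. Lor (chr3:92080271-92083142) was 64873 bp from the nearest peak, and Crct1, a cysteine-rich gene amid the Lce genes, 390784 bp. For Ivl (chr3:92570902-92573735) the deposited annotation assigned 3 peaks with fold enrichments of 2.91, 2.75 and 2.45, of which the nearest ended 559 bp beyond the 3′ end of the gene. In all 3 genes 100% of the 75-base windows were found at a single place.

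The promoters of these genes were read from the RefSeq windows of GRCm38, 250 bases before to 50 bases after each start site, to place the peaks against the start sites and against a sequence that Sprr and Ivl genes are known for, the binding site of AP-1. AP-1 (Fos and Jun) is a calcium- and stress-responsive factor of KCs. Capitals mark AP-1 sites (TGAGTCA, or TGACTCA on the other strand) and TATA boxes (TATAAA, or TTTATA on the other strand). The set holds the marked Sprr1a with its unmarked neighbour Sprr1b, Sprr2h as an example of the Sprr2 genes, the unmarked Lor and Ivl, and the marked S100a11.
Sprr1a, chr3:92485832-92486131, minus strand: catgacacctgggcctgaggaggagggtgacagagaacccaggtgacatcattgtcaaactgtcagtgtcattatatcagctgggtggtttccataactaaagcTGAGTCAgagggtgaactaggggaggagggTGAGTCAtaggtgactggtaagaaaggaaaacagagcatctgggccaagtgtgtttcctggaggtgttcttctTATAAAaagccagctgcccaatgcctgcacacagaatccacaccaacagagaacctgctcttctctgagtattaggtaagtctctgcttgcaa
Sprr1b, chr3:92438730-92439029, minus strand: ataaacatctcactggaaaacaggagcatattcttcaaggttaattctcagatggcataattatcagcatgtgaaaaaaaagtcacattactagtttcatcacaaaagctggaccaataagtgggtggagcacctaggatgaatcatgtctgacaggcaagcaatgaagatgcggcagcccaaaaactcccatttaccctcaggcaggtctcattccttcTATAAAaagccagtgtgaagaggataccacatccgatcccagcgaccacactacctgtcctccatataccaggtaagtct
Sprr2h, chr3:92385435-92385734, plus strand: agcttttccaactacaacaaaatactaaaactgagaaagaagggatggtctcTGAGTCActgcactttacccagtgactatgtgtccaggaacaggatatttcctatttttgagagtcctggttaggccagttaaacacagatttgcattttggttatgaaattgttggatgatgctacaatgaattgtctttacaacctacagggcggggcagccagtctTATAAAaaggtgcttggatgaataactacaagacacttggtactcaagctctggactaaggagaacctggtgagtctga
Lor, chr3:92083093-92083392, minus strand: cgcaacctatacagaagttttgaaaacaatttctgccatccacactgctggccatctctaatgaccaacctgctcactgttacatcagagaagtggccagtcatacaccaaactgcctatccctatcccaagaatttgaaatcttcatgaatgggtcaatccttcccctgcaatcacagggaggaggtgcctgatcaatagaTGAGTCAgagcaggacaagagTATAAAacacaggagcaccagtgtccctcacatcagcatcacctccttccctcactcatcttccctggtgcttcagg
Ivl, chr3:92573686-92573985, minus strand: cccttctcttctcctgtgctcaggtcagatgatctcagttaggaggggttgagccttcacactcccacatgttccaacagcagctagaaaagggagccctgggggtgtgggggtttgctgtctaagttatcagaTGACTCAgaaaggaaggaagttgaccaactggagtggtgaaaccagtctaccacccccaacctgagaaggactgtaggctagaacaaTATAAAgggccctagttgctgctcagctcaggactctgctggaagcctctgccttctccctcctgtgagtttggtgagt
S100a11, chr3:93520246-93520545, plus strand: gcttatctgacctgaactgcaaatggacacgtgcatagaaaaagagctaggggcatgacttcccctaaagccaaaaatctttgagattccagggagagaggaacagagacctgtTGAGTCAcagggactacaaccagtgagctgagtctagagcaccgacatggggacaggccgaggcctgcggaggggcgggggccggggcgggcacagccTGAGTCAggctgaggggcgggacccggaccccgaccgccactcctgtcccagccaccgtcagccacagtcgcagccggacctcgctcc
None of these 6 windows met a peak. Of 58 promoters listed for 54 members, 1 did, an internal start site of S100a16, and of all 32851 promoters 783 did (2.38%). The marked S100a10 and S100a14 are not among these 54 members. For S100a10 the deposited annotation placed the peak at 0 bp from a start site. In Sprr1a AP-1 sites began 146 and 116 bases before the start site and the TATA box 43 bases before it. In Sprr1b there was a TATA box 30 bases before the start and no AP-1 match. In Lor the AP-1 site began 48 bases before the start site, in Ivl 116, and in S100a11, which has no TATA match, 136 and 38.

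Among the members, most AP-1 matches were in the Sprr genes. They stood in 8 of 14 Sprr promoters (57.1%), in both promoters of Lor and Ivl, in 1 of 15 S100a promoters, in 0 of 20 Lce promoters and in 0 of 7 promoters of fused-type genes, where 5.20% of all promoters of the table held a match. In 7 Sprr2 genes (Sprr2b, Sprr2d, Sprr2e, Sprr2f, Sprr2h, Sprr2i and Sprr2k) the first site began between 198 and 193 bases before the start, and the TATA box 29 bases before it. A TATA match was found in 10 of 14 Sprr promoters (71.4%), beside 13.6% of all promoters. AP-1 matches occurred in promoters of marked (Sprr1a, S100a11) and of unmarked genes (Lor, Ivl and the 7 Sprr2 genes). Matches of letters do not show binding.

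The 21 Lce genes and the 7 fused-type genes had no peak on a GENCODE body. Lce6a, at the edge of the Lce cluster nearest to Ivl, was 797 bp from a peak, and the deposited annotation assigned 2 peaks to it. Its GENCODE body is 1580 bp, whereas the RefSeq model is 16840 bp and had 13.5% of its bases in peaks. Lce1a1 was next, at 23114 bp, and Lce1m was the farthest member from any peak, at 394389 bp. Of the fused-type genes, Tchhl1, a trichohyalin-like gene, was 49175 bp from a peak, and Tchh, which encodes the trichohyalin of the hair follicle's inner root sheath, 72078 bp. Repetin (Rptn) was at 121713 bp, hornerin (Hrnr) at 187585 bp, Flg at 227469 bp, Flg2 at 299764 bp and cornulin (Crnn) at 371336 bp.

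Reads of 75 nt cannot be placed at a single site where the members repeat themselves or each other, so the number of places in GRCm38 that match each 75-base window exactly was counted. Among the 9 marked members 96.1% to 100% of windows were found at 1 place. Among the 51 unmarked members the share ran from 3.39% to 100% with a median of 97%; 35 were above 95%, and 6 were below 50%: Sprr2a1 (4.64%), Sprr2a2 (3.39%), Sprr2a3 (37.3%), Flg2 (47.6%), Flg (45.4%) and Hrnr (44.9%). If reads with several places were discarded, absence of a peak carries little information for Sprr2a1 and Sprr2a2, with 280 and 1379 windows at 1 place. For Sprr2a3, Flg2, Flg and Hrnr it then speaks only for the windows at 1 place. These numbered 2204, 11453, 9113 and 6171, beside 1870 in the marked Sprr1a. No source used here states how such reads were handled. In the remaining fused-type genes 95.5% to 100% of windows were unique, and in the Lce genes 76.7% (Lce3f) to 100%.

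Repeats reach into the coding parts, and the windows shown are, for each gene, a coding window with the most exact copies of any of its coding windows. In Sprr2a1 and Sprr2a2 the repeats also take in most of the rest of the body. The windows are printed on the coding strand, all in lower case as they hold no marked motif, to show how the families repeat.
Sprr2a1, chr3:92219155-92219229, plus strand: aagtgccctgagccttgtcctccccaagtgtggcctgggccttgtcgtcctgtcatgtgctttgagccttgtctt
Lce1e, chr3:92707638-92707712, minus strand: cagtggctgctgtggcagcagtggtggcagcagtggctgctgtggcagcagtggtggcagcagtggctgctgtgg
Lce3f, chr3:92993048-92993122, plus strand: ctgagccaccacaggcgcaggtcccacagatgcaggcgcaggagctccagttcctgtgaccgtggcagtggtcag
Flg, chr3:93281568-93281642, plus strand: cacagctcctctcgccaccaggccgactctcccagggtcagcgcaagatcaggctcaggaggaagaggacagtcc
Hrnr, chr3:93323689-93323763, plus strand: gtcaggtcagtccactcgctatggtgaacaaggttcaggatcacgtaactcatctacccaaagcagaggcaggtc
The Sprr2a1 window was found at 3 places. The GENCODE body of Sprr2a2 holds 2 of these copies, as it takes in the copy of Sprr2a1, and Sprr2a3 holds 1. The Lce1e window was found at 6 places, with 2 copies in Lce1a1 and 1 each in Lce1e, Lce1f, Lce1g and Lce1j, and the Lce3f window at 6 places, 1 in each of Lce3a to Lce3f. The Flg window occurred 16 times and the Hrnr window 15 times, each within its own gene. Lor, Ivl, Crct1 and Rptn, by contrast, had no window with a second place.

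**Figure D5:**
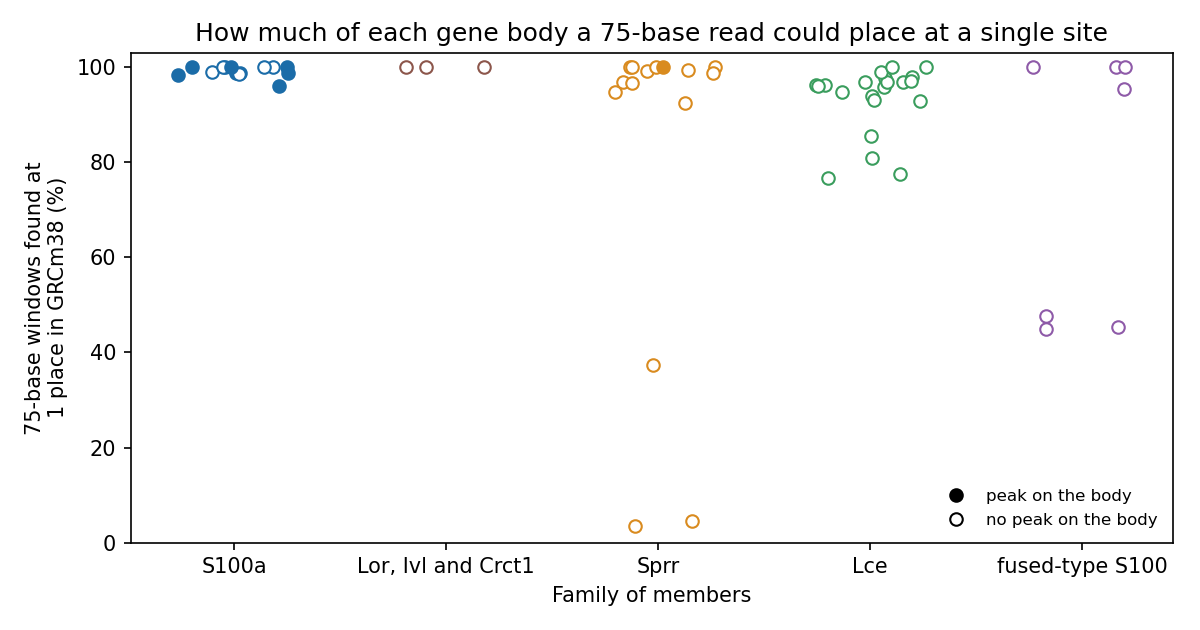
Percent of 75-base windows of each gene body found at 1 place in GRCm38, for the 60 members by family (points are spread sideways to be seen). Filled points are the 9 members with a peak, all at or above 96.1%; open points are members without a peak, 6 of which lie below 50%.

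Along the whole complex from S100a1 to S100a10, 3.05 Mb (chr3:90511034-93564643), 1.96% of bases were in peaks, beside 5.51% of chromosome 3 and 6.82% of the genome. The 32 peaks had fold enrichments of 2.45 to 4.42 with a median of 2.79; 5 reached a fold enrichment of 3 before rounding, where 40.0% of all peaks did. From Lor to Tchhl1, 1.05% of bases were in peaks and 1 of 56 protein-coding genes, Sprr1a, had a peak on its body. In the 1 Mb before S100a1 25.6% of bases were in peaks and 23 of 26 genes were marked, and in the 1 Mb after S100a10 it was 7.32% and 5 of 24 genes. The share of windows with a single place was 98.4%, 86.4% and 64.6% in the 1 Mb before, the complex and the 1 Mb after.

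Long stretches of the complex held no peak. Between Lce6a and S100a11 897735 bp without a peak (chr3:92623421-93521155) contained 32 protein-coding genes, among them 28 members: 20 Lce genes, Crct1 and the 7 fused-type genes. Of the 45554 gaps between neighbouring peaks of the genome it ranked 27th by the number of protein-coding genes inside and 558th by length. A further 468412 bp before Sprr1a held 17 genes, 14 of them members (Lor and 13 Sprr genes). The 1266602 bp between the last peak beside Pglyrp4 and that of Pglyrp3 had no peak either, and contained 2 protein-coding genes.

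Peaks that met no member lay mainly beside S100a9 and around Ivl. By GENCODE bodies, 13 of the 32 peaks lay on members, 4 on other protein-coding genes and 15 on no protein-coding gene. Next to S100a9, Pglyrp4, a secreted peptidoglycan-binding protein of antibacterial defence, had 3 peaks over 38.8% of its body, and its relative Pglyrp3 had 1 over 2.25%; the other 13 non-member genes of the complex had none. Between Sprr4 and Lce1a1, around Ivl, 11 peaks of 398 to 2445 bp lay within 87032 bp (chr3:92536389-92623420) and covered 14.8% of it. Their fold enrichments were 2.45 to 2.91, and none lay on the GENCODE body of a protein-coding gene. The longer RefSeq model of Lce6a lies in this stretch. It had 13.5% of its bases in peaks, which the deposited annotation called distal intergenic. That annotation assigned the 11 peaks to 2310046K23Rik, Ivl, 2210017I01Rik and Lce6a. It called 9 of the 32 peaks distal intergenic, 28.1%, against 2.33% of all peaks.

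Genes listed for their part in the same cells were mostly marked, beside 51.4% of all protein-coding genes, and many of them are longer than the members. The median body was 17413 bp in the list of other cornification genes, 24853 bp in that of regulators and 4605 bp in that of keratins, beside 1754 bp in the members. Of 26 other genes of cornification 22 had a peak on the body (84.6%), with a median covered share of 53.7%. The envelope scaffold genes Evpl and Ppl were covered over 92.8% and 88.6%, and Krtdap over 87.5%. Their highest fold enrichments were 4.04, 3.61 and 2.73. The stricter limits on peaks were not counted over these lists, so their counts are not shown to hold under them. The 4 without a peak were Alox12b, Kprp, Cnfn and Asprv1, and of these Kprp lies within the EDC. Of 27 regulators of the EDC or of terminal differentiation all 27 had a peak, with a median covered share of 60.8%, among them Zfp750 (98.3%), Grhl3 (80.8%) and Klf4 (79.2%), all transcription factors of the differentiating epidermis. Of 12 keratin genes 10 were marked, and Krt2 and Krt6b had no peak. Krt5 and Krt14 of the basal layer were covered over 96.0% and 89.9%, with highest fold enrichments of 4.44 and 4.59. Krt1 and Krt10 of the suprabasal layers were covered over 40.7% and 98.4%, with 2.78 and 3.20.

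The defining markers of the labelled cell type carried the mark: all 10 KC markers had a peak, where 51.4% of all protein-coding genes did. Of the other markers 0 of 8 fibroblast, 2 of 10 immune, 1 of 6 endothelial and 2 of 6 melanocyte markers had one. The lists differ in length, with median bodies of 35445 bp (KC), 37450 bp (fibroblast), 9819 bp (immune), 93765 bp (endothelial) and 54098 bp (melanocyte). The KC markers are not a separate set, as Krt5, Krt14, Krt1 and Krt10 are also in the list of keratins and Trp63 in that of regulators. Of the immune markers Cd68 was covered over 100% of its short body and Cd74 over 7.18%, and the deposited annotation assigned no peak to either. Both basal and suprabasal keratin genes were thus marked in the same library, and the share of cells that carried the mark at an EDC gene cannot be told from a peak list.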

How the data were processed

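H3K36me3 ChIP and input DNA of primary KCs was sequenced as single 75-nt reads after 15 cycles of PCR. The authors trimmed the reads, used Bowtie2 (2.2.6) for alignment to GRCm38, MACS2 (2.1.1, P cut-off 0.01) for the peaks and ChIPseeker for their annotation. The deposited table gives for each peak its 1-based position, the fold enrichment (a ratio of pileup to local background, not a ratio between conditions), the −log10 P and −log10 q-value and an assigned gene. The smallest −log10 P in the deposited table is 2.76 and the smallest −log10 q is 1.31, so the stated P cut-off is looser than the peaks listed, and which further limit was used was not stated. No source used here states whether the input served as control in the peak calling, or how reads with several places were handled. The crosslinking time differs between the labels and the methods of the study.

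Gene bodies came from GENCODE vM21 (GRCm38, the build of the peaks). A gene was counted where a peak covered at least 1 bp of its body. Covered shares, exact binomial intervals and counts of exact matches of 75-base windows on both strands of GRCm38 were computed in Python 3.11.15 (with Numba 0.67.0, SciPy 1.17.1, pandas 2.3.3, NumPy 2.4.6) with code tested on simulated data. Promoters came from RefSeq (GRCm38.p6), and 54 of the 60 members matched. With 1 library no test was run.

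The members and lists were chosen with earlier results of these data known. Named were all members with a peak or assigned one, Lor, Ivl, Crct1 and the fused-type genes, and per family the members nearest to and farthest from a peak. Named too were other genes of the complex with a peak, up to 6 genes of each list with the largest covered shares and up to 4 without a peak. Krt1 and Trp63 were named outside this rule. S100a2, S100a3, S100a4, S100a8, Sprr1b, Lce1a1, Lce3f, the members with repeated windows and the Sprr2 genes with AP-1 matches were named after their values were seen, as were the motifs, the length quartiles and the limit of 3 exons chosen. Alternatives were a fold enrichment of at least 3, P below 1e-05, peaks at least 1000 bp wide, peaks merged over gaps of up to 1000 bp, 10% or 50% of the body, 1000 bp flanks, assigned genes, coding transcripts only and, added after seeing the data, RefSeq bodies. The input library was not analysed here.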

Additional observations from a re-analysis of the deposited data

How the results depend on the processing

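The count of marked members fell most with the stricter peaks: of 60 members 9 had a peak, 4 with a fold enrichment of at least 3, 4 with P below 1e-05, and 5 when at least 50% of the body had to be covered, where 42.6%, 24.6% and 23.8% of all protein-coding genes were then marked. The S100a genes went from 8 to 4, 4 and 4, and the Sprr genes from 1 to 0 and 0 under the fold enrichment and P limits, as the peak on Sprr1a passes neither. With 1000 bp flanks, and with the assigned genes, the Lce genes went from 0 to 1 (Lce6a) and Lor, Ivl, Crct1 and the fused-type genes from 0 to 1 (Ivl); RefSeq bodies, an alternative added after seeing the data, also gave 1 Lce gene. The share of the complex in peaks, 1.96%, was 0.783% with a fold enrichment of at least 3, 0.648% with P below 1e-05, 1.75% with peaks at least 1000 bp wide and 1.99% with flanks. The cause of none of these shifts was tested beyond the construction of each alternative.

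Among the marked members the covered share of S100a10 (73.1-78.2%), S100a11 (78.6-88.6%) and S100a14 (54.9-61.6%) moved little over the alternatives, whereas S100a16 ranged from 17.4% to 46.5% and S100a1, S100a13, S100a6, S100a7a and Sprr1a fell to 0 with a stricter limit. No paired analysis was possible because there is 1 ChIP library. Counts of reads under each peak were not used here, so an unmarked member may be one whose enrichment was too low to be called at this unknown depth.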

Other observations

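S100 genes outside chromosome 3 are few, and their marks varied. S100pbp on chromosome 4, which encodes an S100P-binding protein rather than an S100 protein, had 74.6% of its body in peaks. Of the S100 genes proper, S100z on chromosome 13 had 20.0%, S100b on chromosome 10, a protein of glia and melanocytes, had 10.8% with no peak assigned to it, and S100g on chromosome X, an intestinal calcium carrier, had no peak.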
